A study of Homo sapiens with 12 samples.

Results

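This comparison covers the 6 of 12 arrays on which Ishikawa cells had received metastin-10, and it sets 3 arrays labelled GPR54 siRNA against 3 arrays labelled with a negative control siRNA. Ishikawa is an established line of endometrial adenocarcinoma origin. All 6 cultures were transfected for 48 h, the one group with an siRNA directed at GPR54 and the other with the control siRNA, and all then had 10 µM metastin-10 for 24 h, so the peptide is common to both groups. The remaining 6 arrays repeat the pair of siRNAs with a control peptide in place of metastin-10, again 3 and 3. The labels call the replicates biological and do not say whether they came from separate transfections, so the p-values measure the spread between these samples. Every probe set except the platform's controls was a member, 54613 of the 54675 on the Affymetrix U133 Plus 2.0 array.

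GPR54, the product of KISS1R, is the receptor of the kisspeptins, which are cut from the KISS1 protein. It couples to Gq and phospholipase C and is best known for driving gonadotropin-releasing hormone neurons. Metastin-10 is the short C-terminal kisspeptin that suffices to activate it, and kisspeptins were first described as suppressors of metastasis. The comparison asks how cells that all received the ligand differ with the siRNA directed at its receptor.

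KISS1R itself was higher where the siRNA directed at it was labelled as used. Its probe set read 9.60, 9.42 and 9.28 (log2 RMA level, replicates 1 to 3) there, against 8.43, 8.42 and 8.35 with control siRNA. The groups did not overlap, and the level was higher by 1.03 ± 0.10 (log2 difference ± SE, n = 3 and 3), or 2.04-fold, with a limma adjusted p of 0.000391. With control peptide the same probe set averaged 9.43 ± 0.05 (SD, n = 3) under GPR54 siRNA and 9.28 ± 0.13 under control siRNA. Where on the transcript the siRNA binds is not given in the sources used here, and a single probe set reads this gene. Because the targeted gene goes against the label, the group is called the arrays labelled GPR54 siRNA throughout. KISS1, the ligand precursor, had a log2 difference of -0.02 with an adjusted p of 0.973.

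Of the 54613 probe sets, 316 (0.579%) passed an adjusted p of 0.05, 288 of them higher (0.527%) and 28 lower (0.0513%) in the arrays labelled GPR54 siRNA. With the brightest probe set standing for each of 19775 genes, 205 genes passed (1.04%), 191 higher (0.966%) and 14 lower (0.0708%). Of the 205, 22 were on the 2 lists of genes induced by low oxygen, with ADM at 1.84 the largest, and the other 183 (89.3%) were not. Those lists are not complete. SPAG4, STC2, VLDLR, LOXL2, CXCR4 and AK4 (0.65, picked after its value was seen) are examples also known as hypoxia-induced and counted among the 183. Further hypoxia-induced genes may be among the 183, so 89.3% is the share off these lists and not a share unrelated to hypoxia. The 191 higher genes had a median log2 difference of 0.60, from 0.37 to 1.85, and 23 reached 1. The 14 lower genes had a median of -0.56. The arrays of the 2 groups did not overlap in any of the 205, while 17.5% of all genes tested had groups that did not overlap, 11.2% with the arrays labelled GPR54 siRNA all above and 6.35% with them all below. The number of called genes depended on which array was left out. Without replicates 1 or 2 of the arrays labelled GPR54 siRNA 88 and 95 genes passed. Without replicates 1 or 2 of the control siRNA arrays there were 98 and 103. Without replicate 3 of the arrays labelled GPR54 siRNA there were 210, and without replicate 3 of the control siRNA arrays 194. Fitted on the 6 arrays alone, 41 genes passed, all among the 205.

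**Figure D1:**
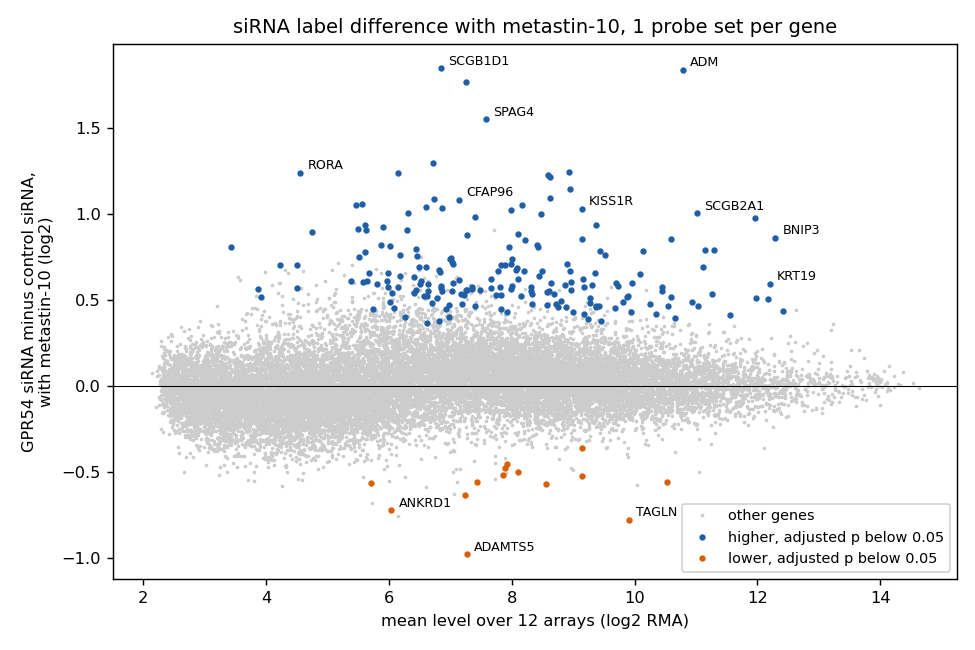
Log2 difference between the arrays labelled GPR54 siRNA and the control siRNA arrays, both with metastin-10, against the mean log2 RMA level over 12 arrays, with 1 point per gene. Blue points are the 191 genes that passed as higher and orange points the 14 that passed as lower; SCGB1D1 at 1.85 and ADM at 1.84 lie at the top, and ADAMTS5 at -0.98 lies lowest.

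Replicate 3 stood apart in every group. The 3 prime minus 5 prime signal of the beta-actin control probes was 0.29 and 0.31 on the log2 scale in the replicate 3 arrays of the 2 groups, against 0.68 to 0.76 in their replicates 1 and 2. Among the 191 higher genes, replicate 3 was the control siRNA array closest to the other group in 114 and the GPR54 siRNA array closest to the other group in 115. With replicates 1 and 2 only, 205 genes passed, and 134 of them were among the 205 called on all replicates. Epithelial identity held in all 6 arrays: EPCAM read 12.9 to 13.1, KRT8 12.2 to 12.7, and the Müllerian factor PAX8 10.7 to 10.9. None of the 10 stromal, 9 endothelial and 8 leukocyte markers passed the limma test, with 0, 1 and 0 of them at an unadjusted p under 0.05. Over all genes tested 1.04% passed and 13.1% had an unadjusted p under 0.05, so few of so small a number would pass in any case. Of 7 smooth muscle markers TAGLN passed, and their summed log2 level was 41.9 to 42.5 in the arrays labelled GPR54 siRNA and 43.6 to 44.0 with control siRNA. The summed level of 11 epithelial markers, of which KRT19 passed as higher, was 123.2 to 124.2 and 121.4 to 122.2, and the part of either shift in the results was not tested. Defining markers of other cell types cannot be called absent on these arrays, because the background level is unknown.

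Of the secretory epithelial genes, 3 secretoglobins and 2 mucins were higher, and SCGB1D1 had the largest difference of all genes tested. In RNA of a whole culture, fewer cells of a type and less RNA per cell cannot be told apart. The secretoglobins are small secreted proteins of glandular epithelium. SCGB1D1, also called lipophilin A, read 7.54, 7.36 and 7.36 in the arrays labelled GPR54 siRNA and 5.35, 5.46 and 5.92 with control siRNA. The difference was 1.85 ± 0.13, or 3.59-fold (adjusted p = 4.7e-05). SCGB2A1, mammaglobin B, read 11.36, 11.36 and 11.50 against 10.36, 10.33 and 10.51, a difference of 1.0025 ± 0.09 (adjusted p = 0.000166). Both pairs of groups were well separated, with a gap wider than either group's range. SCGB1D2 read 7.78, 7.42 and 7.58 against 6.70, 6.61 and 6.86, higher by 0.88 ± 0.12 (adjusted p = 0.00389). The transmembrane mucins MUC20 and MUC1 were higher by 0.67 and 0.57. MUC20 was 0.38 averaged over its probe sets, still called. MUC1 lost its call without any one of 5 of the 6 arrays being compared, every one but replicate 3 of the arrays labelled GPR54 siRNA. In all, 5 of 26 measured members of the secretory list passed (19.2%, beside 1.04% of all genes), all higher. The list median was 0.05 beside 0.00 over all genes. The same 1.04%, with 191 of the 205 called genes higher, stands beside every list count that follows. The lists were drawn up with earlier results of these arrays known, so their counts describe the members and are no independent evidence of a direction.

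Of the genes of motile cilia, 4 of 29 passed, all higher. A motile cilium is built on an axoneme of microtubules, dynein motors and radial spokes, and in the endometrium it belongs to the ciliated cells among the secretory ones. CFAP96, a protein of the ciliary axoneme, read 7.65, 7.40 and 7.36 against 6.35, 6.32 and 6.50, a difference of 1.08 ± 0.11 (adjusted p = 0.000564). DNAI7, which associates with axonemal dynein, read 5.81, 5.89 and 5.82 against 4.72, 4.86 and 5.14, higher by 0.94 ± 0.12 (adjusted p = 0.00297). RSPH1, of the radial spoke head, was higher by 0.69 ± 0.10 (adjusted p = 0.00558), at 6.91, 6.78 and 6.63 against 6.09, 6.04 and 6.12. In each of these the lowest array labelled GPR54 siRNA lay above the highest control siRNA array. The same holds for all 191 genes called as higher and for 11.2% of all genes tested. ROPN1L, of the radial spoke, was higher by 0.55 with an adjusted p of 0.0492, and its other probe set differed by -0.07. It lost its call without any one array except replicate 2 of the arrays labelled GPR54 siRNA. The 4 called are 13.8% of the list, beside 1.04% of all genes, and 191 of all 205 called genes were higher. Of all 29 members 21 lay above 0 and 8 below, with a median of 0.16.

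Other genes linked to cilia or flagella passed outside that list, and their grouping was made after their values were seen. CFAP126 read 7.35, 7.18 and 7.23 against 6.25, 6.14 and 6.28, higher by 1.04 ± 0.09 (adjusted p = 0.000193). CAPSL (1.08), MORN5 (1.06), ZBBX (1.05) and EFHC2 (0.91) were higher too, EFHC2 by 0.50 averaged over its probe sets. Outside the rule for named genes, CIMAP3 (0.71), ODAD4 (0.61), MAK (0.61), DNALI1 (0.59), SPATA7 (0.57) and OSCP1 (0.52) were higher, and all of these but CIMAP3 lost their call without any one of 3 or more of the 6 arrays. CFAP46 (0.61) and SPEF2 (0.47) passed on their brightest probe set and were 0.17 and 0.02, not called, averaged over their probe sets. RFX4, a transcription factor of the RFX family, whose members control ciliary genes through the X-box, read 5.11, 5.14 and 4.95 against 4.08, 4.14 and 4.30, higher by 0.89 ± 0.09 (adjusted p = 0.000865). Its other probe sets differed by -0.08 and 0.04, and averaged over its probe sets the difference was 0.29 and no longer passed (adjusted p = 0.0856). SPAG4, a SUN-domain protein of the nuclear envelope known from sperm, was on no list and had the largest difference of such genes. It read 8.14, 8.14 and 8.11 against 6.65, 6.39 and 6.71, higher by 1.55 ± 0.09, or 2.93-fold (adjusted p = 1.39e-05).

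The RefSeq promoter windows on GRCh38.p14 are printed for chosen called members of the cilia, aryl hydrocarbon receptor and YAP and TEAD target lists. They show where the motif known for each kind of gene lies in those genes. From the cilia list only CFAP96 is printed. Whether the windows of the other called members, DNAI7, RSPH1 and ROPN1L, hold an X-box is not given here. Each window is the 250 bases before the annotated start, written 5′ to 3′ in the direction of the gene, and capitals mark matches on either strand to the X-box of RFX factors, searched with any base at its variable positions, for CFAP96, to GCGTG (the core bound by the aryl hydrocarbon receptor) for CYP1A1 and to GGAATG (bound by TEAD factors) for CCN2 and ANKRD1.
CFAP96 (chr4:185426004-185426253, plus strand): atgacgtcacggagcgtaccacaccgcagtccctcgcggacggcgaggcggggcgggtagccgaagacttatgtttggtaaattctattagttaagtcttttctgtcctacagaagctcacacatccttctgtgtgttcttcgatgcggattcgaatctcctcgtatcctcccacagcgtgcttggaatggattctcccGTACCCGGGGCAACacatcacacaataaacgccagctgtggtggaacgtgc
CYP1A1 (chr15:74725529-74725778, minus strand): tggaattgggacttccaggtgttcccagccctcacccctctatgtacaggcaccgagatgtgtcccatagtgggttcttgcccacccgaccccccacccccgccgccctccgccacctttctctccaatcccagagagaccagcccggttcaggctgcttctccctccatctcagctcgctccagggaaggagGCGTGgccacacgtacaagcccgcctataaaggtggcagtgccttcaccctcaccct
CCN2 (chr6:131951373-131951622, minus strand): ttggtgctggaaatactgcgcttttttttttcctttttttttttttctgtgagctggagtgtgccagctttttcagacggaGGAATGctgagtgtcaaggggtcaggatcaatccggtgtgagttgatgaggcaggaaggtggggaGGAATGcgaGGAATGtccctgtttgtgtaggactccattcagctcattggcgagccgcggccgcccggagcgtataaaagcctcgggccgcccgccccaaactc
ANKRD1 (chr10:90921088-90921337, minus strand): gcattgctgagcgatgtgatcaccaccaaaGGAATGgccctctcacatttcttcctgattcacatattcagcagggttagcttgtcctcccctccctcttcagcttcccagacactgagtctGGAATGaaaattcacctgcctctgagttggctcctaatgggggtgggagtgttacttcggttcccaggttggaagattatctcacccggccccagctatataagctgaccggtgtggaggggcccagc

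The X-box match began 51 bases before the start of CFAP96, and GCGTG began 57 bases before the start of CYP1A1. GGAATG occurred 3 times before CCN2, at 169, 104 and 95 bases, and 2 times before ANKRD1, at 220 and 128. Matches to GCGTG and GGAATG can share an end base. Among 35116 such windows of all genes, 1.98% held an X-box match, 32.2% held GCGTG and 11.9% held GGAATG. Counted per gene, since a gene can have several windows, 2.89%, 45.8% and 13.6% of the 15384 tested genes with a window held the respective motif in at least 1. Of the 164 called genes with a window the numbers were 7 (4.27%), 76 (46.3%) and 25 (15.2%). These matches describe the letters and show no binding, and CYP1A2, whose window lacks GCGTG, was called as well.

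Of 10 measured members of the aryl hydrocarbon receptor list, the 3 CYP1 genes were higher. This receptor is a ligand-activated transcription factor, and the CYP1 enzymes it induces oxidise polycyclic aromatic compounds and oestrogens. CYP1A1 read 8.98, 8.91 and 8.80 in the arrays labelled GPR54 siRNA and 7.80, 7.69 and 7.92 with control siRNA, higher by 1.09 ± 0.09, or 2.13-fold (adjusted p = 7.61e-05). CYP1A2 was higher by 0.82 ± 0.10 (adjusted p = 0.00229), at 8.72, 8.72 and 8.60 against 7.75, 8.08 and 7.77. Its other probe set differed by 0.24 and was not called, and the average of both was 0.53, still called. CYP1B1 was higher by 0.48 ± 0.08 (adjusted p = 0.0143), at 8.95, 8.87 and 8.81 against 8.34, 8.36 and 8.50. The 3 are 30.0% of the list, beside 1.04% of all genes called. Their groups did not overlap, which holds for all 205 called genes and for 17.5% of all genes tested. The call of CYP1B1 was lost without replicate 1 or 2 of either group. CYP1A1 and CYP1A2 are close copies, so their probe sets may share signal.

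Single circadian and steroid-responsive genes were higher. RORA, a nuclear receptor that drives BMAL1 transcription, read 5.09, 5.05 and 4.72 against 3.67, 3.51 and 3.97, higher by 1.24 ± 0.15 (adjusted p = 0.00256). That value rests on 1 of its 8 probe sets: averaged over them the difference was 0.31, still called. BHLHE40, a repressor of the clock and also a hypoxia gene, was higher by 0.81 ± 0.09 (adjusted p = 0.00104), and CIART, another repressor of the clock, by 0.67 ± 0.09 (adjusted p = 0.00575). These were the 3 called of 17 clock genes (17.6%, beside 1.04% of all genes). Of 23 genes of the oestrogen and progesterone response, 3 passed, all higher (13%, beside the same 1.04%). Of all 23, 15 lay above 0 and 8 below, with a median of 0.05 and a lowest value of -0.46. STC1, a secreted glycoprotein hormone, read 10.91, 10.87 and 10.87 against 10.01, 9.99 and 10.09, higher by 0.86 ± 0.07 (adjusted p = 0.000166). Its relative STC2, named above as also hypoxia-induced, was higher by 0.85 ± 0.11, at 8.63, 8.47 and 8.27 against 7.63, 7.47 and 7.72. TSC22D3, the glucocorticoid-induced leucine zipper, was higher by 0.70 ± 0.08, and by 0.27 averaged over its probe sets, which did not pass. HSD11B2, which inactivates cortisol, was on no list and was higher by 0.82 ± 0.16 (adjusted p = 0.0394). Its 3 arrays labelled GPR54 siRNA read 6.16, 6.29 and 5.61 and the control siRNA arrays 5.24, 5.39 and 4.98, and its call was lost without replicate 1, 2 or 3 of the control siRNA arrays or replicate 1 or 2 of the others.

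Among regulators of the cell cycle and of lipid storage, 2 inhibitors of cyclin-dependent kinases and 4 lipid genes were higher. CDKN1C, the CDK inhibitor p57, read 8.94, 8.85 and 8.60 against 7.82, 7.91 and 7.68, higher by 0.997 ± 0.12 (adjusted p = 0.00253), and 3 of its 4 other probe sets also passed. CDKN1A, the CDK inhibitor p21, was higher by 0.58 ± 0.08 (adjusted p = 0.00577). These 2 of 21 p53 targets and CDK inhibitors passed (9.52%, beside 1.04% of all genes). Over the same arrays, none of 28 S phase and 30 G2 and mitosis genes passed limma, beside 1.04% of all genes. Of these, 2 and 1 had an unadjusted p under 0.05, beside 13.1% of all genes, and the list medians were -0.03 and -0.01. G0S2, an inhibitor of the adipose triglyceride lipase, read 8.49, 8.49 and 8.41 against 7.37, 7.40 and 7.47. The difference was 1.05 ± 0.07, or 2.07-fold (adjusted p = 4.7e-05), with little spread within each group. HILPDA, a lipid droplet protein that inhibits the same lipase and is induced by hypoxia, was higher by 0.76 ± 0.08, PLIN2, which coats lipid droplets, by 0.75 ± 0.13, and VLDLR, a lipoprotein receptor, by 0.64 ± 0.09. PLIN2 was 0.30 averaged over its probe sets and not called, and it lost its call without any one array except replicate 3 of the control siRNA arrays. Of 30 lipid genes 4 passed (13.3%, beside 1.04% of all genes), all higher, while the list's median was -0.01.

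**Figure D2:**
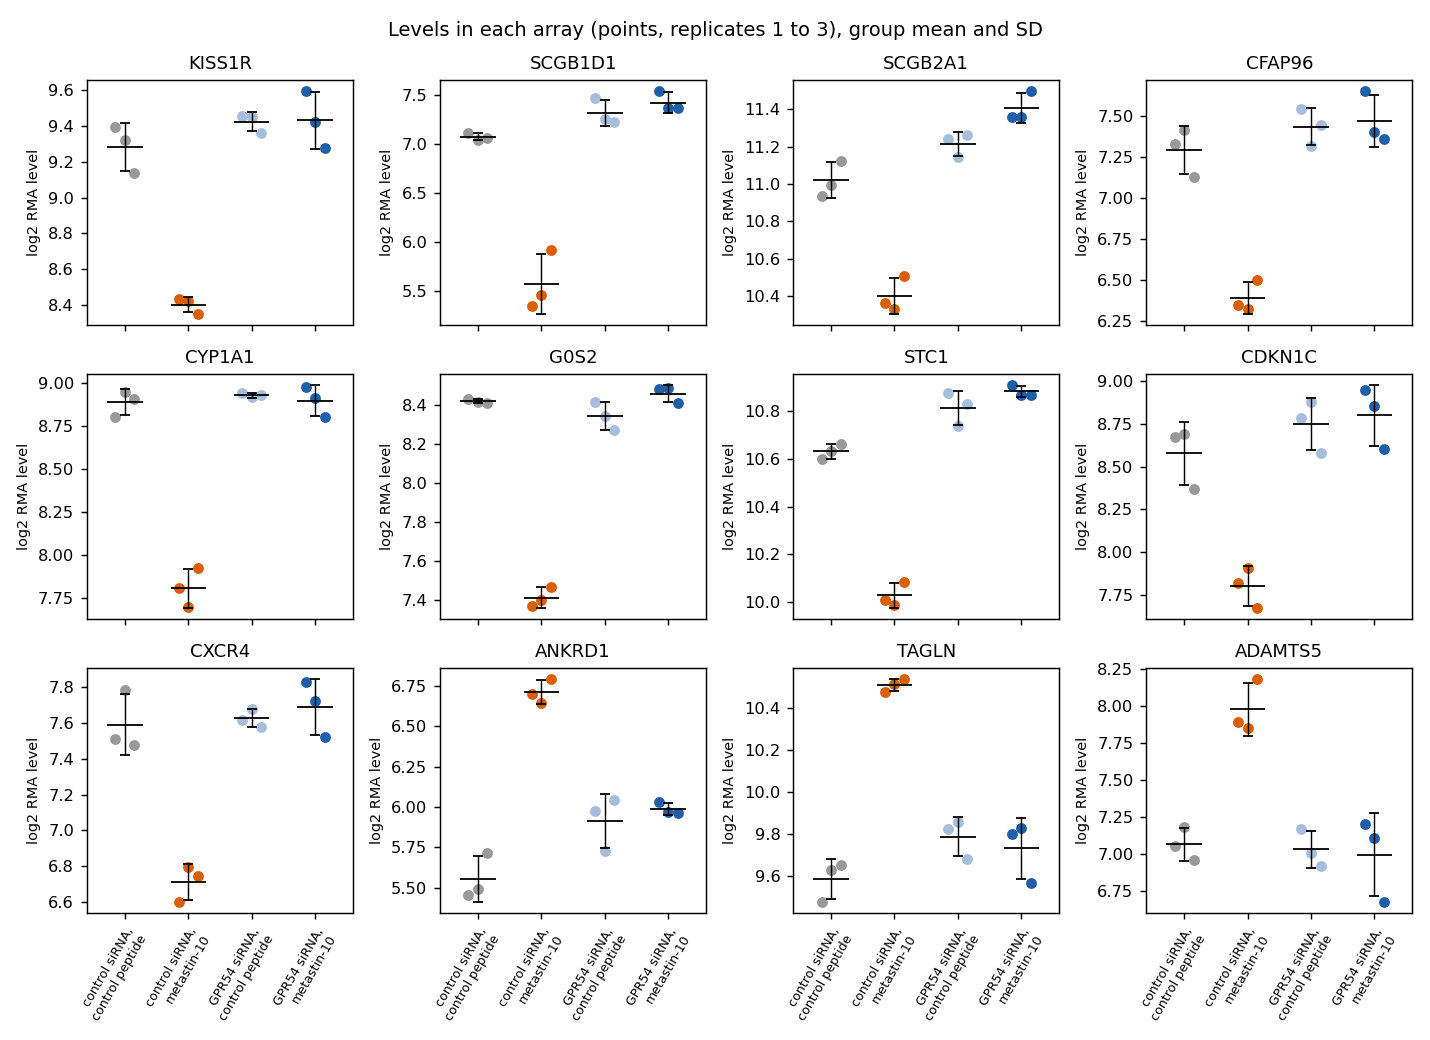
Log2 RMA level of 12 genes in each of the 12 arrays (points, replicates 1 to 3 from left to right), with the mean and SD of each group of 3; each panel has its own vertical scale. In every panel the control siRNA arrays with metastin-10 (orange) lie apart from the arrays labelled GPR54 siRNA with metastin-10 (dark blue), below them for the first 9 genes and above them for ANKRD1, TAGLN and ADAMTS5.

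Matrix and cytoskeletal genes moved in both directions. MMP10, the secreted protease stromelysin-2, read 8.98, 9.04 and 9.07 against 7.69, 7.86 and 7.91, higher by 1.21 ± 0.08, or 2.31-fold (adjusted p = 4.7e-05). ADAMTS5, a protease of cartilage and matrix proteoglycans, read 7.20, 7.11 and 6.68 against 7.89, 7.86 and 8.19, lower by 1.97-fold (log2 difference -0.98 ± 0.14, adjusted p = 0.00568). Its 3 other probe sets passed as lower too, at -0.91 to -0.77. ADAMTS1 differed by -0.50 and lost its call without any one array except replicate 1 of the arrays labelled GPR54 siRNA. Of 30 matrix proteases and inhibitors, 1 passed as higher and 2 as lower. COL6A1 (0.74), LOXL2 (0.91) and P4HA1 (0.69), a collagen chain and enzymes that crosslink and hydroxylate collagen, passed as higher. Averaged over probe sets, COL6A1 (0.15) and LOXL2 (0.27) did not pass and P4HA1 (0.43) did. LOXL2 also lost its call without any one array except replicate 1 of the control siRNA arrays. The medians of the collagen list (1 of 30 called) and of the hydroxylase and lysyl oxidase list (2 of 18 called) were 0.02 and 0.13. P4HA1 is on the hypoxia lists too, and of the 16 hydroxylase and lysyl oxidase genes off those lists 1 passed.

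The lower genes included targets of YAP, a co-activator of the TEAD transcription factors that responds to cell tension and the Hippo kinases. ANKRD1 read 6.03, 5.97 and 5.96 in the arrays labelled GPR54 siRNA and 6.70, 6.64 and 6.79 with control siRNA, a difference of -0.72 ± 0.10 (adjusted p = 0.00537). CCN2, a secreted matricellular protein, read 7.18, 7.24 and 6.84 against 7.56, 7.83 and 7.77, a difference of -0.63 ± 0.12 (adjusted p = 0.0412). CCN2 lost its call without any one of the 6 arrays. TAGLN, the actin-binding protein transgelin, read 9.80, 9.83 and 9.56 against 10.48, 10.51 and 10.54, a difference of -0.78 ± 0.09 (adjusted p = 0.00201). ANKRD1 and TAGLN kept their call under each alternative that was run. Of 23 YAP and TEAD targets 2 passed, both lower (8.70%, beside 1.04% of all genes). In all 17 lay below 0, with a median of -0.10. Of 26 actin and contractile genes only TAGLN passed, and 22 lay below 0 with a median of -0.12.

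Adhesion and surface genes were mixed. CXCR4, the receptor of the chemokine CXCL12, read 7.83, 7.72 and 7.52 against 6.60, 6.79 and 6.74, higher by 0.98 ± 0.11 (adjusted p = 0.00104). AMIGO2, an adhesion protein, read 10.40, 10.37 and 10.45 against 10.98, 10.97 and 10.96, a difference of -0.56 ± 0.08 (adjusted p = 0.00528). CLDN1, a tight junction protein, differed by -0.52 and SAMD4A, an RNA-binding protein, by -0.52. KRT19, a keratin of simple epithelia, read 12.36, 12.41 and 12.36 against 11.77, 11.82 and 11.77, higher by 0.59 ± 0.07, while its other probe set differed by -0.22 and the average of both, 0.19, was not called (adjusted p = 0.241). DSC2, of desmosomes, was higher by 0.39. VIM and S100A4, usually counted as mesenchymal, were higher by 0.55 and 0.58, and VIM averaged over its probe sets was 0.20 and not called. Of 28 adhesion genes 1 passed as higher and 2 as lower, of 29 keratin and junction genes 2 and 1, and of 16 mesenchymal genes 2 and none. The medians of these lists were -0.09, 0.00 and 0.02. Calls of CLDN1, SAMD4A, DSC2 and VIM each failed in 7 or more of the 16 alternatives.

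Of 24 genes of kisspeptin, Gq and calcium signalling, KISS1R and RGS16 passed as higher (8.33%, beside 1.04% of all genes), and the median was -0.05. RGS16, which speeds the switching off of Gq and Gi, read 7.24, 7.09 and 6.77 against 6.44, 6.47 and 6.22, higher by 0.66 ± 0.13 (adjusted p = 0.0462). In cyclic AMP signalling, RAPGEF3, the exchange factor EPAC1, differed by -0.48 and PDE3A, a phosphodiesterase, by 0.59, the 2 called of 22. KLF4 (0.55) was the only called gene of 26 immediate early and MAPK feedback genes, and ID2 (0.51) of 26 genes of TGF-beta, BMP and activin. RGS16, RAPGEF3 and PDE3A were each lost in 7 or more alternatives, and KLF4 in 1. ID2 lost its call without replicate 1 or 2 of either group.

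Single members of further lists passed. DPYSL4, a collapsin response mediator, read 6.67, 6.48 and 6.50 against 5.24, 5.25 and 5.44, higher by 1.24 ± 0.11 (adjusted p = 0.000246), and by 0.48 averaged over its probe sets. EFNA3, an ephrin ligand, was higher by 0.46, SLC40A1, the iron exporter ferroportin, by 0.65, and KDM3A, a histone demethylase, by 0.60. KDM3A is on the hypoxia lists too, and of the 20 histone and DNA demethylases off those lists 0 passed. Averaged over their probe sets SLC40A1 was 0.38 and KDM3A 0.26, both still called. DDIT3, the stress factor CHOP, was higher by 0.47, one of 3 called of 27 genes of the unfolded protein response and amino acid stress. The others were DDIT4, which is on the hypoxia lists, and VLDLR, named above as also hypoxia-induced. KCNJ16, an inwardly rectifying potassium channel, differed by -0.56, and KCNE3, a potassium channel subunit, by -0.36. CHGA (-0.45), SYT16 (-0.56) and MYEOV (-0.57) completed the 14 lower genes. MYEOV read 8.40, 8.44 and 8.41 against 8.99, 8.99 and 8.98, the tightest pair of groups among them. DDIT3, EFNA3, SLC40A1, KCNJ16, KCNE3, CHGA and SYT16 each lost their call without any one of 2 or more of the 6 arrays, replicates 1 and 2 of the GPR54 siRNA label among them. Of the other higher genes on no list, ASCL2 (1.04), APOL4 (1.002), TMEM45A (0.93), SCUBE2 (0.92), CLIC3 (0.90) and NRN1 (0.88) had the largest differences outside cilia. Averaged over their probe sets ASCL2 was 0.60 and APOL4 0.40, both still called. CLIC3 lost its call in 3 of the 16 alternatives.

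**Figure D3:**
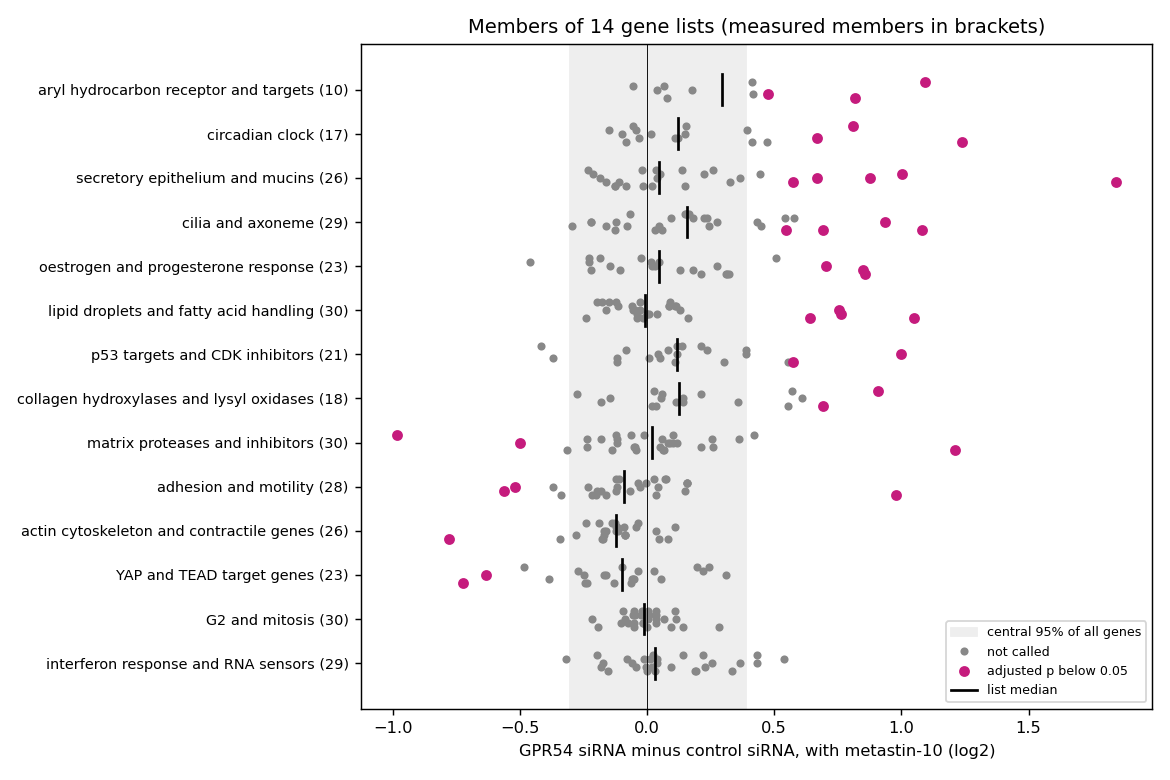
Log2 difference (arrays labelled GPR54 siRNA minus control siRNA arrays, with metastin-10) of each measured member of 14 gene lists; magenta points passed an adjusted p of 0.05, black bars are list medians and the grey band holds the central 95% of all genes. Called members of the first 8 lists lie to the right of 0, those of the actin and the YAP and TEAD lists to the left, and the bottom pair of lists has no called member.

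No member of 15 other lists passed the limma test. These held 288 measured entries, of which 39 had an unadjusted p under 0.05, beside 13.1% of all genes tested. They include cholesterol synthesis, NF-kB and inflammation, the interferon response, the respiratory chain, cytosolic ribosomal proteins, RNA interference machinery, metallothioneins, and Wnt and Notch. Their medians ran between -0.05 for the NF-kB list and 0.14 for prostaglandin synthesis and receptors.

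The same siRNA labels were compared with control peptide on 6 arrays that share none with the comparison above. There, 0 of 19775 genes and 29 of 54613 probe sets (0.0531%) passed limma, and 553 genes (2.80%) had an unadjusted p under 0.05. The 191 genes higher with metastin-10 had a median difference of 0.10 with control peptide, and 162 of them (84.8%) lay above 0, beside 59.4% of all genes, whose median was 0.02. The 14 lower genes had a median of 0.07 with control peptide, and 4 lay below 0. SCGB1D1 differed by 0.24 with control peptide, CYP1A1 by 0.04, MMP10 by 0.10 and TAGLN by 0.20, against 1.85, 1.09, 1.21 and -0.78 with metastin-10. These genes were called on the metastin-10 difference, so smaller differences with control peptide are partly set by that choice.

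The difference between the differences, or interaction, was tested over all 12 arrays and passed in 28 probe sets (0.0513%) and 21 genes (0.106%). Of the 205 genes called with metastin-10, 19 of the higher and 2 of the lower passed it, 12 of the higher ones outside the hypoxia lists. The 28 probe sets fell to 9 and 6 without replicates 1 or 2 of the arrays labelled GPR54 siRNA and to 10 and 9 without replicates 1 or 2 of the control siRNA arrays. SCGB1D1 had an interaction of 1.60 (adjusted p = 0.008), G0S2 of 1.13 (adjusted p = 0.00279) and CYP1A1 of 1.05 (adjusted p = 0.008). KISS1R had 0.89 with an adjusted p of 0.04996, just under the threshold. For the other called genes a difference between the peptides was not shown. RORA, for instance, differed by 0.51 with control peptide, with an unadjusted 95% interval from 0.18 to 0.84. Its limma adjusted p there was 0.678, so it did not pass with control peptide.

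**Figure D4:**
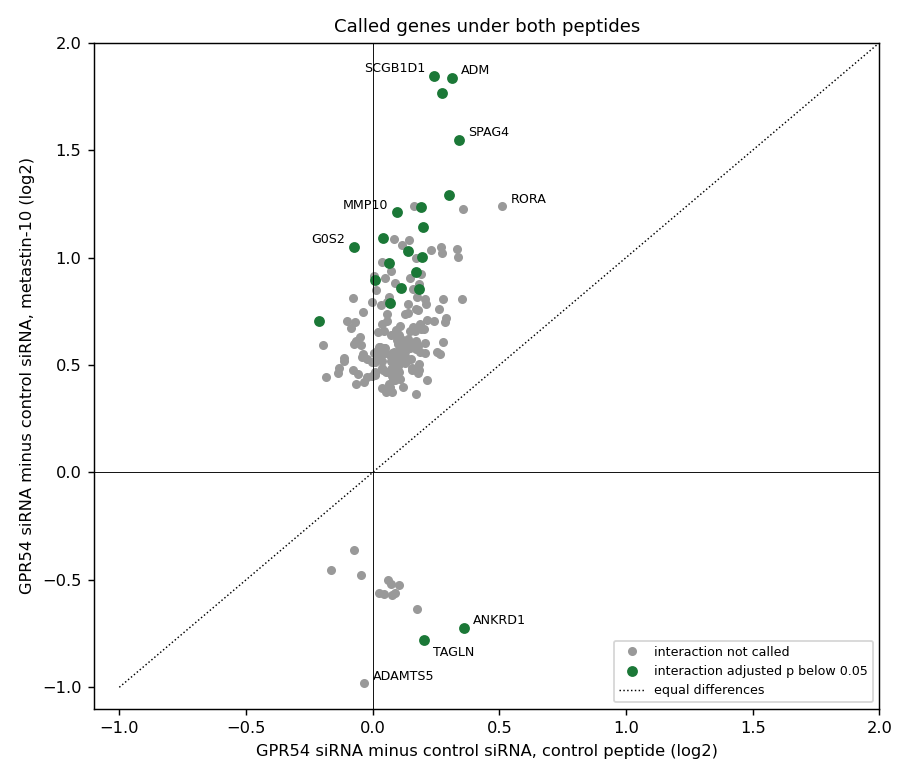
Log2 difference between the siRNA labels with metastin-10 (vertical axis) against the same with control peptide (horizontal axis) for the 205 called genes; the 2 axes share no array, green points passed the interaction test and the dotted line marks equal differences. Higher genes spread from 0.37 to 1.85 vertically and centre at 0.10 horizontally, and ANKRD1 and TAGLN lie below 0 on the vertical and above 0 on the horizontal axis. The genes were called on the vertical difference, so smaller horizontal differences are partly set by that choice.

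The levels in all 4 groups show which arrays set these differences. The median level of the 191 higher genes was 8.14, 8.12 and 8.02 with metastin-10 and the GPR54 siRNA label, and 7.40, 7.40 and 7.47 in the control siRNA arrays with metastin-10. It was 8.07, 8.04 and 7.95 with control peptide and the GPR54 siRNA label, and 7.92, 7.92 and 7.92 in the control siRNA arrays with control peptide. Only the control siRNA arrays with metastin-10 lay low. For the 14 lower genes these same arrays lay high, at 8.30, 8.28 and 8.29, while the other 9 ran from 7.67 to 7.94. Both sets of genes were called on the difference between the metastin-10 groups. The distance between those 2 groups is therefore set by the choice of genes and is no separate evidence. The metastin-10 difference under control siRNA, which shares those 3 arrays and is therefore no separate evidence, had a median of -0.49 over the 191 genes and 0.59 over the 14. Under the GPR54 siRNA label the metastin-10 difference had medians of 0.04 and -0.04. Whether the culture or the handling of those 3 arrays differed from the others cannot be told apart from the siRNA and peptide they received.

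Other probe sets of the called genes mostly pointed the same way. Of the 205 genes, 124 had 231 further probe sets, of which 186 had the same sign, 41 also passed in the same direction and 0 passed in the opposite one (limma, adjusted p under 0.05). For 94 of the 124 genes no further probe set passed. Averaged over probe sets, 24 of the called genes named by the rule fell by over 1.5 times, and 12 of these remained called.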

How the data were processed

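Per the labels' protocols, a Qiagen kit gave the RNA and a one-cycle Affymetrix protocol the biotin label. The authors deposited log2 values; RMA is named in the submitters' processing notes, and its software is not given in the sources used here. RMA corrects background, quantile-normalizes arrays and summarises probes, so a shift of most genes one way would not be seen. Values ran from 1.88 to 14.6, with array medians of 5.13 to 5.22. With no detection calls used, background is unknown, and differences of dim probe sets may be compressed. Arrays correlated at 0.992 to 0.998, and no pair differed by an SD under 0.15, so none was a copy. The number of arrays limits precision: the median probe set had a 95% interval of 0.25 on each side of its log2 difference.

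The 62 control probe sets were left out and 54613 were tested with limma 3.58.1 in R 4.3.3: 4 group means over 12 arrays, 8 residual degrees of freedom, empirical Bayes, two-sided, Benjamini-Hochberg adjustment over all probe sets, threshold 0.05. The script was tested on simulated data. An exact permutation test of 3 against 3 arrays cannot go below 0.1 and was not used. Probe sets were named from the platform annotation: 41091 had 1 gene, 1801 several and 11721 (21.5%) no listed gene. The brightest probe set over 12 arrays stood for a gene. Its genome position is not given, since the values carry no build.

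The members and the 48 lists (992 of 1065 entries measured) were chosen with earlier results of these data known. The rule for named genes took KISS1R and KISS1, the highest 40 and lowest 15 called genes whose groups do not overlap, and up to 8 called members of a list; genes outside it are said to be so, or to be picked after their values were seen. Promoter windows came from RefSeq (GRCh38.p14). There were 16 alternatives: the 6 arrays alone, a replicate block, replicate 3 as a batch block, replicates 1 and 2 only, each of 6 arrays left out, array weights, intensity trend with robust moderation, a filter at the median level, median centring, repeated quantile normalization, and the mean over a gene's probe sets.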

Additional observations from a re-analysis of the deposited data

Results flagged for a closer look

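In 20 named genes the difference between the siRNA labels depended on the peptide, by limma's interaction test with an adjusted p under 0.05. Each value is the log2 difference with metastin-10 minus that with control peptide. Outside the hypoxia lists and above 0 were SCGB1D1 (1.60), SPAG4 (1.21), G0S2 (1.13), MMP10 (1.11), CYP1A1 (1.05), DPYSL4 (1.05), KISS1R (0.89), RFX4 (0.88), SCGB2A1 (0.81), TMEM45A (0.76) and STC1 (0.67). On the hypoxia lists were ADM (1.52), COXFA4L2 (1.49), MIR210HG (0.99), ALDOC (0.95), DDIT4 (0.91), BNIP3 (0.75) and BNIP3L (0.72). These lists are not complete, so genes outside them may be hypoxia-induced as well. Below 0 were ANKRD1 (-1.08) and TAGLN (-0.98). INHBE, an inhibin subunit outside the rule for named genes, was the other gene that passed, at 0.92. The 21 genes are 0.106% of those tested. The number of probe sets passing, 28, fell to between 6 and 10 without replicate 1 or 2 of either metastin-10 group and to 2 with replicates 1 and 2 only.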

How the results depend on the processing

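No named gene that was called changed sign in any of the 16 alternatives; 34 of 86 kept their call in all of them, 25 lost it in 1 or 2 and 27 in more. Counts are given in the order probe sets, higher, lower, genes and interaction, with 316, 288, 28, 205 and 28 as reported. The 6 arrays alone gave 57, 54, 3 and 41, and no interaction. Replicate 3 as a batch block gave 602, 526, 76, 359 and 73, array weights 2016, 1364, 652, 996 and 250, intensity trend with robust moderation 525, 471, 54, 341 and 88, and the filter at the median level 597, 547, 50, 394 and 55. With replicates 1 and 2 only, 60 probe sets were lower and 2 passed the interaction. Repeated quantile normalization gave 45 for the interaction, and averaging probe sets gave 339 genes. Leaving out 1 array gave 129 to 332 probe sets, 117 to 304 higher, 10 to 30 lower, 88 to 210 genes and 6 to 32 interactions. KISS1R ranged from 0.95 to 1.11 and was always called. The cause of these moves was not tested.

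Same-numbered arrays of the 2 groups had deviations that correlated at -0.15, 0.26 and 0.07. Only replicate 2 correlated best with its own number, so the numbers were not taken to pair the arrays. That check does not remove what the replicate 3 arrays share, which the main fit left in the spread. With replicate 3 as a batch block 359 genes and 73 interactions passed. A fit with the replicate block gave 504, 447, 57, 310 and 45, including 203 of the 205 genes. Of the 205 genes, 41 to 205 passed in the various alternatives. Levels near the unknown background limit what dim probe sets can show.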

Other observations

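Some called genes on no list and outside the rule for named genes were picked after their values were seen, and no list or enrichment stands behind them. BTG1, an antiproliferative factor, read 9.70, 9.73 and 9.55 in the arrays labelled GPR54 siRNA against 8.79, 8.97 and 8.88, a log2 difference of 0.78, and kept its call without any one array. Averaged over its probe sets the difference was 0.49, still called. HLA-B (0.55) and HLA-C (0.51), classical class I molecules, were higher, with HLA-B at 10.50, 10.62 and 10.72 against 10.09, 10.04 and 10.07. HLA-C lost its call without 1 of the 6 arrays, and probe sets of such close copies may share signal. DIRAS2 (0.71), a small GTPase, lost its call without any one of 3 of the 6 arrays. FRZB, a secreted Wnt antagonist, read 6.25, 6.30 and 6.14 against 5.36, 5.13 and 5.76, a difference of 0.81, or 0.36 averaged over its probe sets, and lost its call without any one of 4 of the 6 arrays. Of 25 Wnt and Notch genes on the list, none passed limma, with 5 at an unadjusted p under 0.05, beside 13.1% of all genes. Of the 316 called probe sets, 22 had no listed gene and 9 had several.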
